A study of Mus musculus with 2 samples.

Results

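The genes described here encode proteins of the nucleolus and of ribosome assembly. They were chosen by name from the gene table of the data: every symbol that begins with Nop, Nol, Rrp or Utp and a digit, or with Polr1, and the symbols Nolc1, Imp3, Imp4, Ncl, Npm1, Fbl, Gnl3, Dkc1, Gar1, Nhp2, Wdr43 and Rrs1. This gave 51 of 27998 genes, on 19 different chromosomes. By name alone the rule also takes in Nol3, Nol4 and Nol4l, for which no nucleolar role is assumed here.

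RNA was counted cell by cell in thymus cells of C57BL/6 mice with a yellow fluorescent reporter on both copies of Bcl11b (Bcl11byfp/yfp). The 5 sorted populations, all Lin-, 7AAD- and Kit+, each carried their own hashtag antibody and were run together in 1 droplet library of the Chromium 3′ v3 kit. The control sort had no further gate. The other sorts were also CD25- and Bcl11b- and were divided by the surface proteins Flt3, Ly6d and HSA into Flt3- Ly6d+, Flt3- Ly6d- HSA-, Flt3+ HSA+ and Flt3+ Ly6d- HSA- cells. The sources used here do not give how many mice were pooled. Each population is 1 sort in 1 library, so no population has a replicate, no test was run, and every interval covers counting error only.

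Ribosomes are made in the nucleolus. RNA polymerase I transcribes the long precursor of the ribosomal RNAs, small guide RNAs in box C/D and box H/ACA particles direct its chemical modification, and separate sets of factors fold, cut and export the parts of the small and the large subunit. Cells that grow and divide make more ribosomes, and the transcription factor Myc is known to bind many of these genes at the sequence CACGTG, called an E-box. Early thymic progenitors divide repeatedly before and during commitment to the T lineage.

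Promoters of a few genes are shown because the E-box is the sequence by which Myc is best known to bind genes of this kind. In RefSeq promoter windows (build GRCm38.p6; 250 bases before the start of transcription to 50 after it), 41 of the 51 genes had an entry. CACGTG, which reads the same on both strands, was found in 8 of the 41 (19.5%), against 2187 of 27025 genes in the table (8.09%). The 8 were Imp4, Utp14b, Nop2, Utp18, Nol11, Rrp7a, Utp20 and Wdr43. The 150 bases before the start are printed for 4 of them, with the E-box in capitals: Nop2 (chr6:125131733-125131882, plus strand), Nol11 (chr11:107189382-107189531, minus strand), Utp18 (chr11:93885767-93885916, minus strand) and Imp4 (chr1:34439679-34439828, plus strand).
Nop2: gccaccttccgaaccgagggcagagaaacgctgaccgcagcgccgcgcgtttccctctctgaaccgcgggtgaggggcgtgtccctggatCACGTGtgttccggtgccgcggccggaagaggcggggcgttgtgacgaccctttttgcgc
Nol11: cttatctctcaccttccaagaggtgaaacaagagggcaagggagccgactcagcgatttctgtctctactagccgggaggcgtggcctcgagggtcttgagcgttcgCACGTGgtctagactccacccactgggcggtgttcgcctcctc
Utp18: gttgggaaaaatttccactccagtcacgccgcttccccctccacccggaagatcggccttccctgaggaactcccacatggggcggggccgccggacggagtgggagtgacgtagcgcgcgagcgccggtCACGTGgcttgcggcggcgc
Imp4: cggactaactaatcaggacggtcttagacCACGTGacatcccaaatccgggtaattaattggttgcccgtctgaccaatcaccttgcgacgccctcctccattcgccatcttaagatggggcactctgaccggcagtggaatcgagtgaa
The first base of the E-box lies 60 bases before the start in Nop2, 43 in Nol11, 20 in Utp18 and 121 in Imp4. For contrast, the same stretch is given for Ncl (chr1:86359456-86359605, minus strand) and Nop56 (chr2:130274262-130274411, plus strand), which hold no CACGTG in it and are described with the sorts.
Ncl: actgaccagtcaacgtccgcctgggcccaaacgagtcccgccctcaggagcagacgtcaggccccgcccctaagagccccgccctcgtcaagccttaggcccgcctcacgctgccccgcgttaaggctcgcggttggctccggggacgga
Nop56: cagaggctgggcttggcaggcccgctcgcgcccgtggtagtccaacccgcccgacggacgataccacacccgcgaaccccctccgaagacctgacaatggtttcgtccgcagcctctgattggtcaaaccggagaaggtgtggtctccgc
The letters describe these windows and say nothing of binding by Myc. Npm1, Rrs1, Fbl, Nol3, Rrp12, Nol6, Utp11l, Nol4, Utp6 and Utp23 had no entry.

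The cells numbered 3302 in control, 847 in Flt3- Ly6d+, 1205 in Flt3- Ly6d- HSA-, 1182 in Flt3+ HSA+ and 1412 in Flt3+ Ly6d- HSA- cells. A UMI is a tag that counts a captured RNA molecule once, and the median UMIs per cell were 16040 in control, 11404 in Flt3- Ly6d+, 9860 in Flt3- Ly6d- HSA-, 21152 in Flt3+ HSA+ and 15478 in Flt3+ Ly6d- HSA- cells. The populations summed to between 10616041 and 57199129 UMIs, and 345 of 8293 barcodes with no assigned population were left out. Levels are given as CPM, which is UMIs per 1000000 UMIs of the population. The 6 markers listed for early T progenitors summed to 593 CPM in control, 739 in Flt3- Ly6d+, 715 in Flt3- Ly6d- HSA-, 562 in Flt3+ HSA+ and 599 in Flt3+ Ly6d- HSA- cells. Single markers of that list differed in both directions between sorts. The 4 markers listed for T commitment summed to 864 CPM in control, 243 in Flt3- Ly6d+, 167 in Flt3- Ly6d- HSA-, 154 in Flt3+ HSA+ and 150 in Flt3+ Ly6d- HSA- cells. The 14 markers listed for granulocytes and monocytes summed to 1071 CPM in control, 397 in Flt3- Ly6d+, 4467 in Flt3- Ly6d- HSA-, 3197 in Flt3+ HSA+ and 3144 in Flt3+ Ly6d- HSA- cells. The lists for B cells, dendritic cells, mast cells, erythroid cells, later thymocytes and thymic epithelium summed to at most 114 CPM in any population, and the list for NK and innate lymphoid cells to between 354 and 474 CPM.

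Together the 51 genes made up a lower share of all UMIs in both Flt3- sorts than in the other populations. Their summed level was 8298 CPM in control, 7136 in Flt3- Ly6d+, 7336 in Flt3- Ly6d- HSA-, 8734 in Flt3+ HSA+ and 8709 in Flt3+ Ly6d- HSA- cells. The 95% Poisson interval ran from 7085 to 7187 CPM in Flt3- Ly6d+ cells, the widest, and from 8274 to 8321 CPM in control cells, the narrowest. As a share of the UMIs of a cell, the median was 0.75% in control, 0.633% in Flt3- Ly6d+, 0.626% in Flt3- Ly6d- HSA-, 0.834% in Flt3+ HSA+ and 0.813% in Flt3+ Ly6d- HSA- cells. After each cell was thinned to 3000 UMIs the medians were 0.733% in control, 0.633% in Flt3- Ly6d+, 0.633% in Flt3- Ly6d- HSA-, 0.833% in Flt3+ HSA+ and 0.8% in Flt3+ Ly6d- HSA- cells, in the same order of Flt3- below the other sorts. As a number of molecules, the median cell held this many UMIs of the 51 genes: 120 in control, 71 in Flt3- Ly6d+, 60 in Flt3- Ly6d- HSA-, 176 in Flt3+ HSA+ and 129 in Flt3+ Ly6d- HSA- cells. In sums over a population, fewer cells that use a gene and less of its RNA per cell cannot be told apart.

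The levels span a wide range. Npm1 alone held between 32.2% and 34.1% of the UMIs of the 51 genes, and Npm1 with Ncl between 44.6% and 46.7%. At 20 CPM or more in at least 1 population were 42 genes, 6 more reached 5 CPM, and 3 stayed under 5 CPM everywhere. Those 3 were the name matches Nol4, with 0 UMIs in every population, Nol3, at 0.20 to 0.47 CPM, and Nol4l, at 2.03 to 4.8 CPM. For the 42 genes, the highest population was 1.03 to 1.51 times the lowest, with a median of 1.21. The lowest population was Flt3- Ly6d+ for 31 of the 42 and Flt3- Ly6d- HSA- for 9. The highest was Flt3+ Ly6d- HSA- for 18, Flt3+ HSA+ for 14 and the control for 9. The same counts were not made over all genes, so they have no background here. The Flt3- Ly6d+ sort also had the fewest UMIs in total, 10616041.

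**Figure D1:**
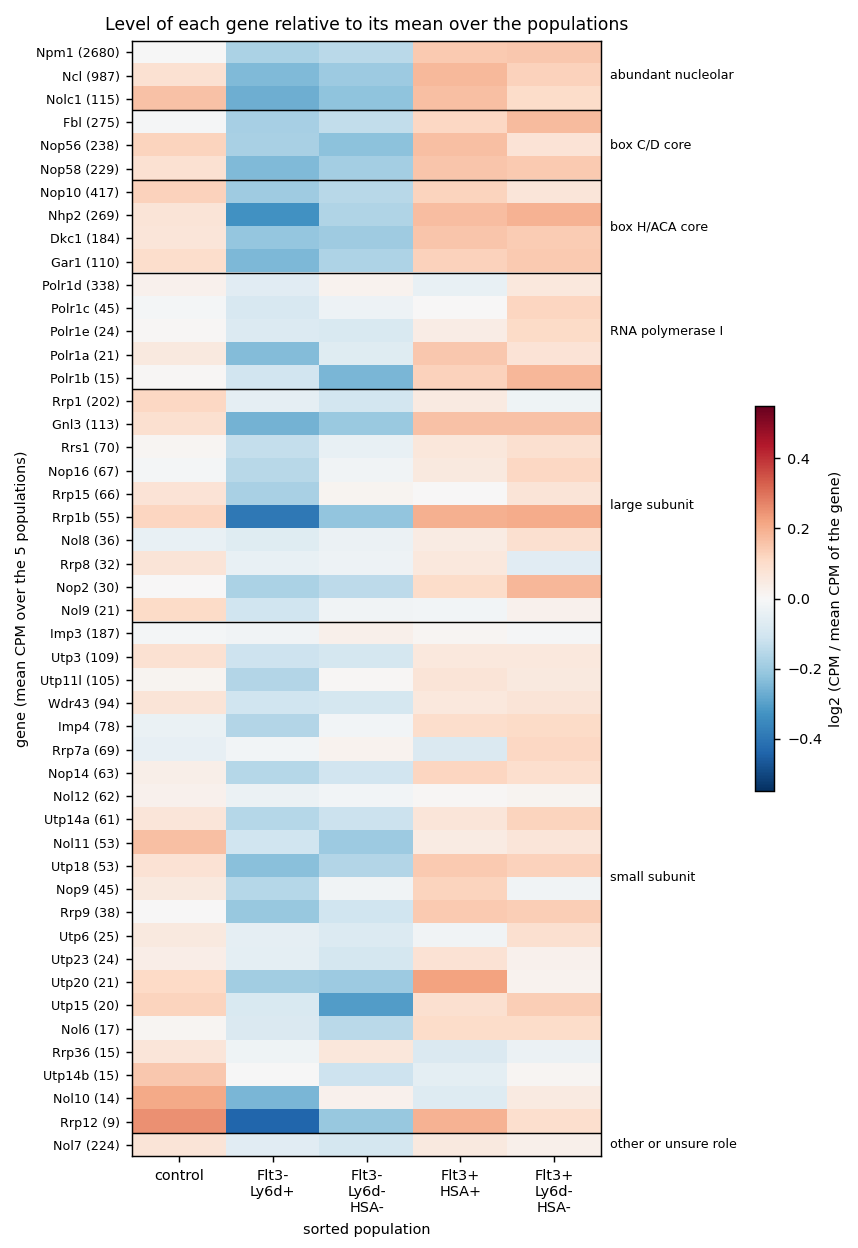
Level of the 48 genes that reached 5 CPM in any population, as log2 of the CPM in a population over the mean CPM of the gene in the 5 populations, in rows grouped by role. Blue (lower) fills the Flt3- Ly6d+ and Flt3- Ly6d- HSA- columns for the abundant nucleolar proteins and both guide-RNA particles, while Imp3 and Nol12 stay near white in all 5 columns.

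In the comparisons, a gene was counted as higher or lower when the CPM of the higher population was at least 25% above that of the lower and reached 20 CPM. The same count over all genes gives the background. Because the kit reads 1 tag per captured molecule at the 3′ end, levels were not divided by gene length, and levels of different genes still depend on how well each is captured.

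Flt3- Ly6d- HSA- cells were first set against Flt3+ Ly6d- HSA- cells, sorts whose gates differ in Flt3. Of 42 genes measured, 8 were lower (19.0%, background 10.3% of genes) and none was higher (background 10.8%). The log2 ratio was below 0 for 39 of 42, beside 2778 of 5696 over all genes measured. The median was -0.18 beside 0.01 over all genes. The 95% interval of the ratio lay below 1 for 27 of 42 and above 1 for 0, beside 1629 and 1654 of the 5696. The threshold falls inside this group, since 7 more genes had folds between 1.2 and the threshold. With totals set by edgeR's TMM factors, 14 genes were lower, and the split of all genes moved to 13% lower and 8.43% higher. DESeq2 size factors gave 14 lower genes and a split of 12.8% lower and 8.49% higher. Totals without mitochondrial and ribosomal protein genes gave 4 lower genes of 42, beside 8.81% of all genes lower and 12.6% higher. Cells with no G2 or M phase UMI among 3000 gave 1 lower gene of 40, with 6.97% of all genes lower and 10.1% higher. The median there was -0.18. Such cells outside the granulocyte class described further on gave 9 of 39, with 8.6% lower and 12.3% higher, at a median of -0.23. Genes of S phase and of G2 and M phase were lower too, 25 of 25 and 24 of 24, with median log2 ratios of -0.69 and -1.83, and their part in the result was not tested.

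The abundant nucleolar proteins were all lower in level in both Flt3- sorts. Npm1 encodes nucleophosmin, a chaperone of ribosome assembly, and lies at chr11:33152287-33163206. It had 2673 CPM in control, 2375 in Flt3- Ly6d+, 2415 in Flt3- Ly6d- HSA-, 2962 in Flt3+ HSA+ and 2973 in Flt3+ Ly6d- HSA- cells. Ncl encodes nucleolin, which binds the ribosomal RNA precursor (chr1:86344719-86359400). It had 1048 CPM in control, 833 in Flt3- Ly6d+, 859 in Flt3- Ly6d- HSA-, 1117 in Flt3+ HSA+ and 1079 in Flt3+ Ly6d- HSA- cells. Nolc1 encodes a chaperone of guide-RNA particles (chr19:46075863-46085530). It had 129 CPM in control, 95.4 in Flt3- Ly6d+, 98.5 in Flt3- Ly6d- HSA-, 129 in Flt3+ HSA+ and 123 in Flt3+ Ly6d- HSA- cells. Of the 3, Ncl passed the threshold for Flt3- Ly6d- HSA- over Flt3+ Ly6d- HSA-, 1.26-fold lower (95% interval 1.23 to 1.28), and the log2 ratios of Npm1 and Nolc1 were -0.30 and -0.32.

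The core proteins of the guide-RNA particles had similar ratios. Fbl encodes fibrillarin, the methyltransferase of box C/D particles (chr7:28169710-28179269), and Nop56 and Nop58 are the paired scaffold proteins beside it. Fbl had 274 CPM in control, 242 in Flt3- Ly6d+, 250.2 in Flt3- Ly6d- HSA-, 297 in Flt3+ HSA+ and 310.1 in Flt3+ Ly6d- HSA- cells. Nop56 had 259 CPM in control, 210.2 in Flt3- Ly6d+, 203 in Flt3- Ly6d- HSA-, 266 in Flt3+ HSA+ and 250.2 in Flt3+ Ly6d- HSA- cells. Nop58 had 243 CPM in control, 194 in Flt3- Ly6d+, 202 in Flt3- Ly6d- HSA-, 255 in Flt3+ HSA+ and 253 in Flt3+ Ly6d- HSA- cells. All 3 were highest in Flt3+ sorts, with log2 ratios of Flt3- Ly6d- HSA- over Flt3+ Ly6d- HSA- of -0.31, -0.30 and -0.33, of which Nop58 passed the threshold.

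Box H/ACA particles turn uridine into pseudouridine. Dkc1 encodes dyskerin, their enzyme (chrX:75095854-75109777), and Gar1, Nhp2 and Nop10 are its partners, which telomerase shares. Nhp2 (chr11:51619735-51623714) had 283 CPM in control, 214 in Flt3- Ly6d+, 239.9 in Flt3- Ly6d- HSA-, 303 in Flt3+ HSA+ and 307 in Flt3+ Ly6d- HSA- cells. It was 1.28-fold lower in Flt3- Ly6d- HSA- cells (95% interval 1.23 to 1.33). Dkc1 was 1.26-fold lower (1.2 to 1.33), with 161 CPM in Flt3- Ly6d- HSA- and 203 CPM in Flt3+ Ly6d- HSA- cells. The other partners did not pass the threshold in this comparison, with log2 ratios of -0.31 for Gar1 and -0.22 for Nop10.

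Of the RNA polymerase I genes at 20 CPM or more, none passed the threshold for Flt3- Ly6d- HSA- over Flt3+ Ly6d- HSA-. Polr1a and Polr1b encode its catalytic core, Polr1e takes part in initiation, and Polr1c and Polr1d are shared with RNA polymerase III. Polr1d (chr5:147077050-147111597), which had most UMIs of them, had 344 CPM in control, 323 in Flt3- Ly6d+, 342 in Flt3- Ly6d- HSA-, 329 in Flt3+ HSA+ and 351 in Flt3+ Ly6d- HSA- cells. Its log2 ratio of Flt3- Ly6d- HSA- over Flt3+ Ly6d- HSA- was -0.037, and those of Polr1a, Polr1c and Polr1e were -0.14, -0.15 and -0.19. Polr1b, which did not reach 20 CPM, was 1.35-fold lower (95% interval 1.13 to 1.62), with 12.3 CPM in Flt3- Ly6d- HSA- and 16.6 CPM in Flt3+ Ly6d- HSA- cells.

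Factors of the large subunit were mixed, with a median log2 ratio of -0.13 over 10 genes. Gnl3 encodes nucleostemin, a GTPase of the nucleolus of dividing cells (chr14:31012433-31019152). It was 1.29-fold lower (95% interval 1.21 to 1.37), with 97.7 CPM in Flt3- Ly6d- HSA- and 126 CPM in Flt3+ Ly6d- HSA- cells. Rrp1b (chr17:32036100-32062865) was 1.34-fold lower (1.22 to 1.47), with 47.7 CPM in Flt3- Ly6d- HSA- and 63.8 CPM in Flt3+ Ly6d- HSA- cells. Nop2, an RNA methyltransferase and 1 of the genes with an E-box, was also lower, with 27 CPM in Flt3- Ly6d- HSA- and 33.7 CPM in Flt3+ Ly6d- HSA- cells. Other factors of the large subunit differed less. Rrp1, the paralogue of Rrp1b, had 189 CPM in Flt3- Ly6d- HSA- and 199 CPM in Flt3+ Ly6d- HSA- cells. Rrp8, a methyltransferase of the large ribosomal RNA, had 31.2 CPM in Flt3- Ly6d- HSA- and 30.5 CPM in Flt3+ Ly6d- HSA- cells. Rrs1, which in yeast helps to load the 5S RNA, had a log2 ratio of -0.13.

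Most factors of the small subunit belong to the processome that forms around the U3 guide RNA, and their median log2 ratio was -0.16 over 17 genes. Of these Utp15 (chr13:98246845-98263041) passed the threshold, at 1.36-fold lower (95% interval 1.16 to 1.6), with 15.9 CPM in Flt3- Ly6d- HSA- and 21.6 CPM in Flt3+ Ly6d- HSA- cells. Imp3 (chr9:56937475-56938398), which joins U3 to the precursor, had 186 CPM in control, 185 in Flt3- Ly6d+, 191 in Flt3- Ly6d- HSA-, 188 in Flt3+ HSA+ and 186 in Flt3+ Ly6d- HSA- cells. Its level was nearly flat over the series. Nop9 had 44.9 CPM in Flt3- Ly6d- HSA- and 44.8 CPM in Flt3+ Ly6d- HSA- cells, and Nol12 and Utp11l had log2 ratios of -0.027 and -0.044. Nol7, whose role is less settled, had -0.13. The 7 genes with an E-box that reached 20 CPM had a median log2 ratio of -0.22 (range -0.32 to -0.098), and the 29 with a promoter entry and no E-box -0.19 (range -0.44 to 0.035).

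**Figure D2:**
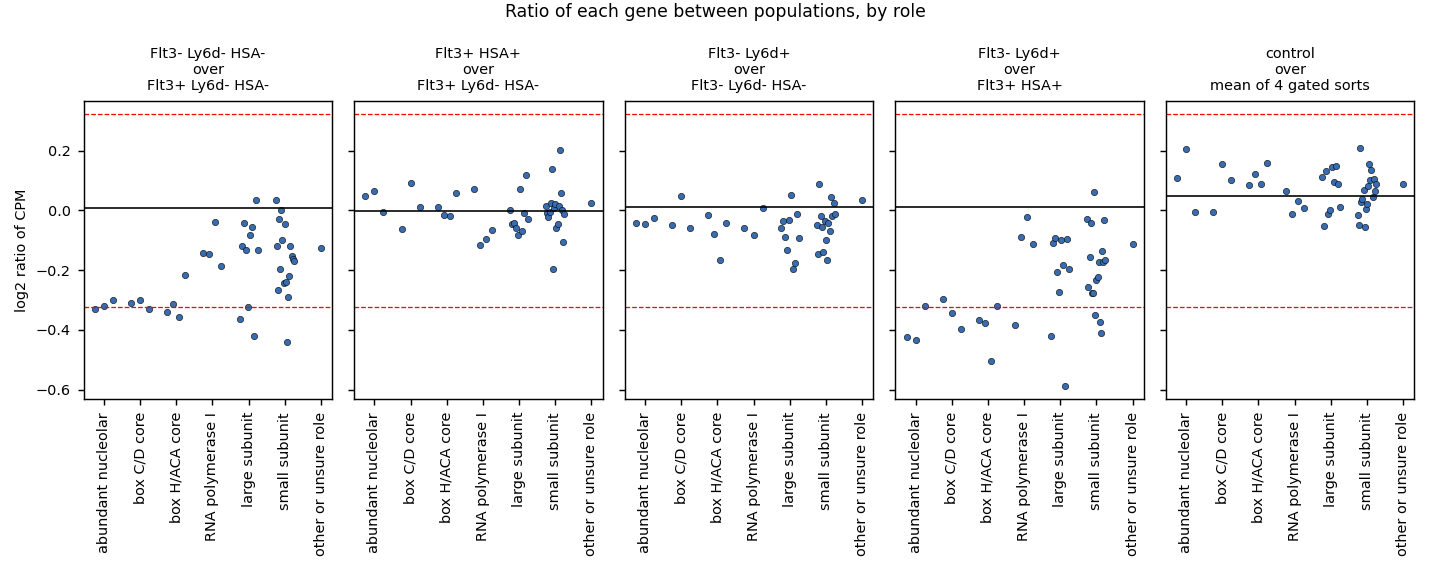
Log2 ratio of CPM for each gene at 20 CPM or more, by role, in the 5 comparisons. The black line is the median of all genes measured, and the dashed lines mark a level 25% above the other. For Flt3- Ly6d- HSA- over Flt3+ Ly6d- HSA- and for Flt3- Ly6d+ over Flt3+ HSA+, every abundant nucleolar, box C/D and box H/ACA gene sits below 0; in the other panels no gene passes a dashed line.

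Flt3+ HSA+ cells were set against Flt3+ Ly6d- HSA- cells next. No gene of the 42 was higher (background 4.1%) or lower (background 1.12%), and the median log2 ratio was -0.006. The ratios ran from -0.20 for Rrp7a to 0.20 for Utp20, both small-subunit factors. Rrp7a had 64.9 CPM in Flt3+ HSA+ and 74.4 CPM in Flt3+ Ly6d- HSA- cells. Utp20 had 24.4 CPM in Flt3+ HSA+ and 21.2 CPM in Flt3+ Ly6d- HSA- cells. Next to these were Nop9 (0.14), Rrp8 (0.12) and Nop56 (0.091) at the high end, and Polr1c (-0.12), Utp6 (-0.11) and Polr1d (-0.097) at the low end. Over the same sorts all 24 G2 and M phase genes and 6 of 25 S phase genes were higher. Cells with at least 5 UMIs of the G2 and M phase list among 3000, called dividing from here on, made up 53.8% of Flt3+ HSA+ and 28.2% of Flt3+ Ly6d- HSA- cells. The name covers G2 and M phase RNA only. Cells in S phase can fall outside it, so these shares are not the shares of cells in the cycle.

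Between the Flt3- sorts the differences were also small. For Flt3- Ly6d+ over Flt3- Ly6d- HSA-, none of 39 genes was higher (background 4.45%) or lower (background 4.34%). The median log2 ratio was -0.046, and 32 of 39 ratios were below 0, beside 2663 of 5687 over all genes. That sign changed to a median of 0.063 without the cells rich in granulocyte markers described further on. The lowest log2 ratios were -0.19 for Rrp15, -0.18 for Rrp1b, -0.17 for Nhp2 and -0.17 for Utp11l. The highest were 0.088 for Nol11, 0.051 for Rrp1, 0.05 for Nop56 and 0.044 for Utp23. Dividing cells were 9.32% of Flt3- Ly6d+ and 7.24% of Flt3- Ly6d- HSA- cells.

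Flt3- Ly6d+ cells were then set against Flt3+ HSA+ cells, and both sorts also serve in the comparisons above. Their labels differ in Flt3, and also in that the first names Ly6d and the second HSA. Of 42 genes, 13 were lower (31.0%, background 15.8%) and none was higher (background 17.5%). Lower too were 22 of 25 S phase genes and 24 of 24 G2 and M phase genes, with median log2 ratios of -0.78 and -2.09. Dividing cells were 9.32% of Flt3- Ly6d+ and 53.8% of Flt3+ HSA+ cells, and the part of the cell cycle in the result was not tested. The median log2 ratio was -0.23 beside 0.01 over all genes, and 41 of 42 ratios were below 0, beside 2811 of 5814 over all genes. TMM factors gave 20 lower genes with a split of all genes of 22.1% lower and 11.6% higher, and DESeq2 size factors gave 19 with 20.3% lower and 13% higher. Totals without mitochondrial and ribosomal protein genes gave 10 of 42, with 13.3% of all genes lower and 21.1% higher. Cells with no G2 or M phase UMI among 3000 gave 10 of 40, with 11% lower and 16.6% higher. Rrp1b was 1.5-fold lower (95% interval 1.35 to 1.67), with 42.2 CPM in Flt3- Ly6d+ and 63.4 CPM in Flt3+ HSA+ cells. Nhp2 was 1.42-fold lower (1.35 to 1.49), Nolc1 1.35-fold (1.26 to 1.45) and Ncl 1.34-fold (1.31 to 1.37). The other 9 were Gnl3, Utp20, Nop58, Polr1a, Gar1, Utp18, Dkc1, Rrp9 and Nop56. At the other end stood Rrp7a (log2 ratio 0.063), Polr1d (-0.023), Imp3 (-0.029) and Utp6 (-0.032).

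The control was set against the mean of the 4 gated sorts. No gene of 42 was higher (background 8.54%) or lower (background 6.12%). The median log2 ratio was 0.084, beside 0.048 over all genes. The highest were 0.21 for Nol11, 0.21 for Nolc1, 0.16 for Nop10 and 0.16 for Utp15. The lowest were -0.055 for Rrp7a, -0.053 for Nol8, -0.048 for Imp4 and -0.015 for Imp3.

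Other genes of the pathway were read from a list of 82 further ribosome biogenesis genes, 80 of them in the data. For Flt3- Ly6d- HSA- over Flt3+ Ly6d- HSA-, 6 of 71 were lower (8.45% against 10.3% of all genes) and none was higher, with a median log2 ratio of -0.12. Tcof1 encodes treacle, a cofactor of RNA polymerase I transcription, and had 76.6 CPM in Flt3- Ly6d- HSA- and 108 CPM in Flt3+ Ly6d- HSA- cells. Krr1, a small-subunit factor, had 45.7 CPM in Flt3- Ly6d- HSA- and 40.7 CPM in Flt3+ Ly6d- HSA- cells. For Flt3- Ly6d+ over Flt3+ HSA+, 16 of 71 were lower (22.5% against 15.8% of all genes) and none was higher, with a median of -0.19. Nat10, an RNA acetyltransferase, had 15.1 CPM in Flt3- Ly6d+ and 23.1 CPM in Flt3+ HSA+ cells. Ubtf, which activates ribosomal RNA genes, had 128 CPM in Flt3- Ly6d+ and 118 CPM in Flt3+ HSA+ cells. The proteins of the finished ribosome had ratios near 1: none of 80 ribosomal protein genes was higher or lower for Flt3- Ly6d- HSA- over Flt3+ Ly6d- HSA- (median 0.025), and 1 of 80 was higher for Flt3- Ly6d+ over Flt3+ HSA+ (median 0.05). In the remaining comparisons of the further biogenesis genes, 1 of 71 was lower for Flt3- Ly6d+ over Flt3- Ly6d- HSA-, 1 of 72 was higher in the control, and none of 70 differed for Flt3+ HSA+ over Flt3+ Ly6d- HSA-.

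Between the HSA- sorts, Myc RNA differed in the opposite direction to these genes. Myc had 103 CPM in Flt3- Ly6d- HSA- and 82.2 CPM in Flt3+ Ly6d- HSA- cells, a log2 ratio of 0.32. Mxd4, whose product competes with Myc for their partner Max, had 82.7 CPM in Flt3- Ly6d- HSA- and 53.8 CPM in Flt3+ Ly6d- HSA- cells. Of 32 Myc-linked growth genes outside the nucleolus, 16 were lower (50% against 10.3% of all genes) and none was higher in this comparison, with a median log2 ratio of -0.32. Ran, the GTPase of nuclear transport, had 858 CPM in Flt3- Ly6d- HSA- and 1253 CPM in Flt3+ Ly6d- HSA- cells. For Flt3- Ly6d+ over Flt3+ HSA+ 23 of the 32 were lower (71.9% against 15.8% of all genes), and the log2 ratio of Myc was 0.074. Of 8 genes of the Myc family measured there, 4 were higher (50% against 17.5% of all genes) and none was lower. The largest log2 ratios were 0.86 for Mxd4, 0.51 for Mnt and 0.51 for Mycn. Mthfd2, an enzyme of mitochondrial folate metabolism, had 13.9 CPM in Flt3- Ly6d+ and 28.2 CPM in Flt3+ HSA+ cells.

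Inside every population, cells with more UMIs gave a larger share of them to these genes. The cells of each population were split by UMIs per cell into 4 groups of equal size. From fewest to most UMIs, the summed level ran 5986, 7154, 8319 and 9375 CPM in the control. Among Flt3- Ly6d+ cells it ran 5432, 5837, 6888 and 8555 CPM. Flt3- Ly6d- HSA- had 5183, 5840.3, 6714 and 8890.1 CPM. These are the sorts with the fewest UMIs per cell. Without the granulocyte class defined further on, the group with most UMIs of the Flt3- Ly6d- HSA- sort had 8222 CPM. Flt3+ HSA+ had 7110.0, 8331, 8864 and 9414 CPM. Flt3+ Ly6d- HSA- had 6329, 7536, 9025 and 9797 CPM. After thinning every cell to 3000 UMIs the level still went up with each step in all 5 populations.

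Genes differed in how far they followed. Leaving out cells with UMIs of at least 7 of 14 granulocyte and monocyte markers, over the 5 populations Nolc1 was 1.64 to 2.7 times as high in the group with most UMIs as in the group with fewest, Nhp2 1.65 to 2.41 times, Ncl 1.7 to 2.13 times and Rrp1b 1.47 to 2.4 times. Npm1 was 1.33 to 1.74 times as high. Imp3 (0.955 to 1.06 times) and Rrp1 (1.07 to 1.16 times) hardly varied, and Utp23 (0.66 to 1.06 times) was lower in the group with most UMIs in 3 of 5 populations. With those cells included, Nolc1 was 1.67 to 3.24 times as high.

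The sorts differ in UMIs per cell, so cells of 10000 to 15000 UMIs were compared, a window chosen after seeing these values. What sets the UMIs of a cell was not tested. The window lies above the median of Flt3- Ly6d- HSA- cells (9860) and below those of Flt3+ Ly6d- HSA- (15478) and Flt3+ HSA+ cells (21152). The window thus takes different parts of these sorts. It held 781 control, 318 Flt3- Ly6d+, 377 Flt3- Ly6d- HSA-, 219 Flt3+ HSA+ and 473 Flt3+ Ly6d- HSA- cells. Their summed level was 6871 CPM in control, 6606 in Flt3- Ly6d+, 6989.6 in Flt3- Ly6d- HSA-, 7231 in Flt3+ HSA+ and 7184 in Flt3+ Ly6d- HSA- cells. For Flt3- Ly6d- HSA- over Flt3+ Ly6d- HSA- the median log2 ratio was -0.017, beside -0.0071 over all genes, and none of 40 genes was lower or higher, beside 5.76% and 5.42% of all genes. Ncl in this window had 796 CPM in Flt3- Ly6d- HSA- and 769 CPM in Flt3+ Ly6d- HSA- cells. For Flt3- Ly6d+ over Flt3+ HSA+ the median was -0.12, with 5 of 41 genes lower and 2 higher, beside 11.4% and 11.9% of all genes. Rrp1b in this window had 34 CPM in Flt3- Ly6d+ and 43.9 CPM in Flt3+ HSA+ cells.

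**Figure D3:**
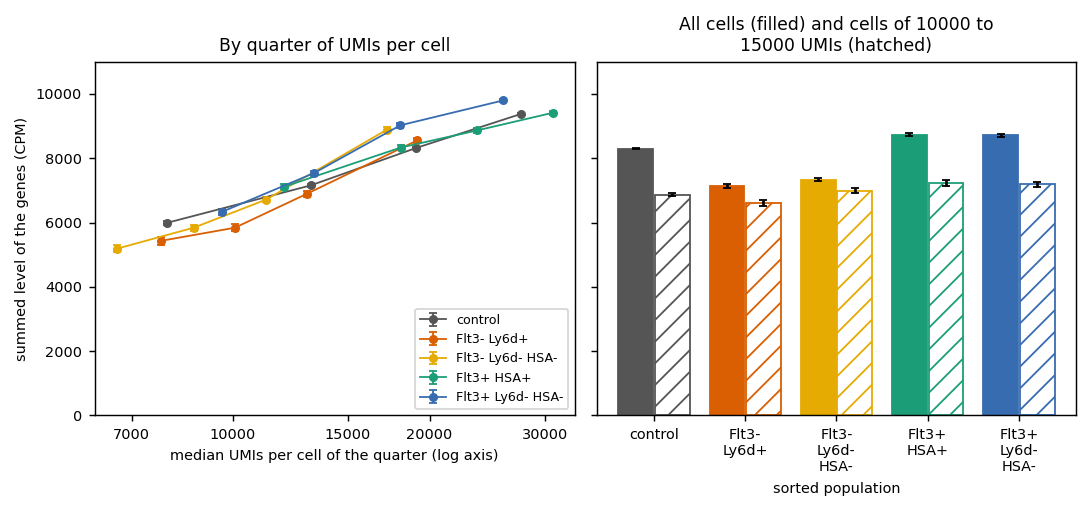
Left, summed level of the 51 genes (CPM) in 4 equal groups of cells by UMIs per cell, against the median UMIs of the group on a log axis, for the 5 populations. Right, the same level in all cells (filled bars) and in cells of 10000 to 15000 UMIs (hatched bars), where the 5 populations lie between 6606 and 7231 CPM. Error bars are 95% Poisson intervals.

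Dividing cells held more of these RNAs, here among cells outside the granulocyte class defined below and against cells with no G2 or M phase UMI among 3000. Cells with 1 to 4 such UMIs are in neither group. The cells with none are not all outside the cycle. In the Flt3+ Ly6d- HSA- sort, 332 of 503 of them had 3 or more S phase UMIs. In the control, the summed level was 8768 CPM in dividing cells and 7376 CPM in the others. It was 8162 in dividing against 6671 CPM in the others among Flt3- Ly6d+ cells and 7903 against 6484 CPM among Flt3- Ly6d- HSA- cells. The Flt3+ HSA+ sort had 8968 against 7943 CPM, and the Flt3+ Ly6d- HSA- sort 9165 against 7688 CPM. Dividing cells also had more UMIs, with a median of 24768 against 11770 in the control. Cells with no UMI of either cycle list were lower still, at 5873 CPM in 129 control cells, 5598 CPM in 67 Flt3- Ly6d+ cells, 5587 CPM in 126 Flt3- Ly6d- HSA- cells and 5893 CPM in 41 Flt3+ Ly6d- HSA- cells. Over the 5 populations Ncl was 1.31 to 1.48 times and Nolc1 1.22 to 1.5 times as high in dividing cells, and Npm1 1.08 to 1.19 times. Utp23 was 0.765 to 1.02 times and Polr1e 0.854 to 1.08 times as high.

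**Figure D4:**
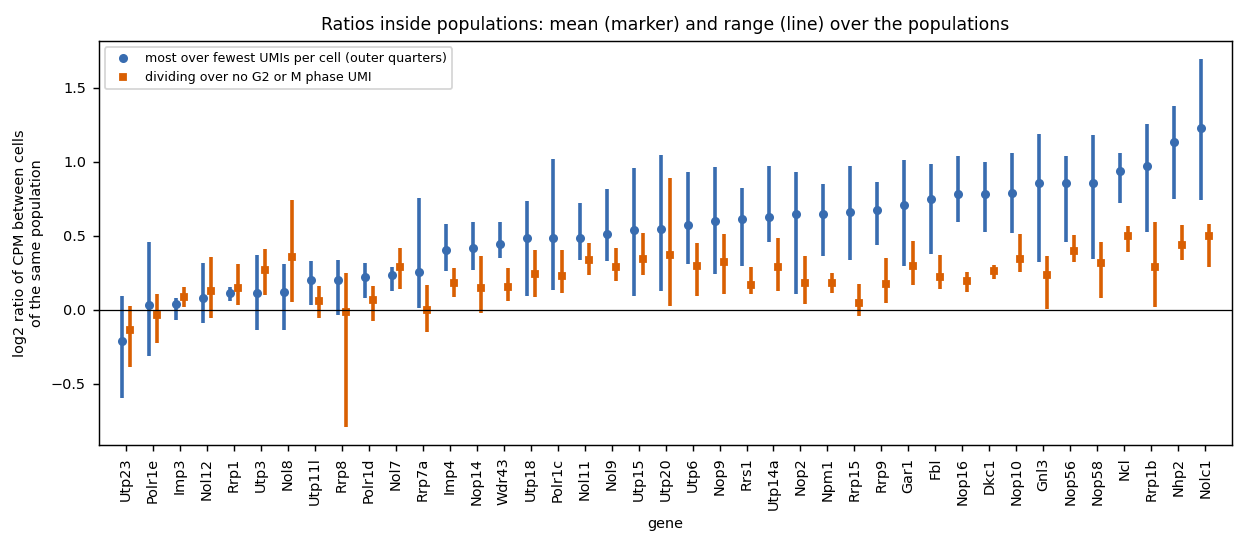
Log2 ratio of each gene inside populations, as the mean (marker) and range (line) over populations, for the group of cells with most over the group with fewest UMIs (blue circles, all cells) and for dividing cells over cells with no G2 or M phase UMI (orange squares). Nolc1, Nhp2, Rrp1b and Ncl lie far to the right in blue, and Imp3 and Rrp1 near 0.

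The sorts also hold cells with many granulocyte markers. Cells with UMIs of at least 7 of the 14 granulocyte and monocyte markers, here the granulocyte class, were 44 in control (1.33%), 0 in Flt3- Ly6d+, 98 in Flt3- Ly6d- HSA- (8.13%), 28 in Flt3+ HSA+ (2.37%) and 66 in Flt3+ Ly6d- HSA- (4.67%). They gave 20.0% of the UMIs of the Flt3- Ly6d- HSA- sort and 10.2% of those of the Flt3+ Ly6d- HSA- sort. The summed level was 10102 CPM in the class and 8240.3 CPM in the other cells of the control. It was 9708 against 6744 CPM in Flt3- Ly6d- HSA-, 8217 against 8764 CPM in Flt3+ HSA+ and 9647 against 8602 CPM in Flt3+ Ly6d- HSA-. The class also had more UMIs per cell, with medians of 29446 against 9475 in the Flt3- Ly6d- HSA- sort and 36154 against 15074 in the Flt3+ Ly6d- HSA- sort, and the part of depth was not tested. It was called on all UMIs of a cell, without thinning, so cells with more UMIs enter it more easily. Outside the class, the group of cells with most UMIs had 8222 CPM in the Flt3- Ly6d- HSA- sort and 9841 CPM in the Flt3+ Ly6d- HSA- sort. Over these 4 populations Nop9 was 1.49 to 2.05 times and Nhp2 1.34 to 2.39 times as high in the class as outside it, whereas Rrp1 was 0.816 to 0.947 times and Nol8 0.699 to 0.957 times.

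Without this class the difference between the HSA- sorts was larger. For Flt3- Ly6d- HSA- over Flt3+ Ly6d- HSA-, 17 of 42 genes were lower and none was higher, with a median log2 ratio of -0.29, beside 15.2% and 15.5% of all genes. Nolc1 was 1.54-fold lower, with 76.3 CPM in Flt3- Ly6d- HSA- and 117 CPM in Flt3+ Ly6d- HSA- cells. Nhp2 was 1.53-fold lower, with 188 CPM in Flt3- Ly6d- HSA- and 288 CPM in Flt3+ Ly6d- HSA- cells. For Flt3- Ly6d+ over Flt3+ HSA+, 14 of 42 were lower, with a median of -0.22, beside 15% of all genes lower and 16.3% higher. In cells of 10000 to 15000 UMIs outside the class, the median for Flt3- Ly6d- HSA- over Flt3+ Ly6d- HSA- was -0.037, with none of 39 genes lower or higher, beside 5.74% and 5.49% of all genes.

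The control, which has no gate on CD25 or Bcl11b, was divided by UMIs of Il2ra (which encodes CD25), Bcl11b and Cd3g, which encodes part of CD3. In the order in which these genes come on, there were 1112 cells with no UMI of Il2ra or Bcl11b, 766 with Il2ra and no Bcl11b, 835 with Bcl11b and no Cd3g, and 589 with Bcl11b and Cd3g. The summed level of the 51 genes was 8345, 8624, 8341 and 7693 CPM in that order. When cells were classed after thinning to 3000 UMIs it was 8469, 8668, 7962 and 7156 CPM, with median UMIs per cell of 15791, 16789, 18403 and 8190.5. The last class was the lowest both ways, and in the thinned classes it also had the fewest UMIs per cell, whose part was not tested.

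Single genes went in opposite directions across these classes. The genes named here were chosen after their values were seen. Gnl3 had 119, 138, 121 and 92.9 CPM, and Nop2 28.2, 34.6, 30.1 and 25.7 CPM. Ncl had 1043, 1119.9, 1061 and 936 CPM. Both Gnl3 and Ncl were highest in the Il2ra class. Utp3, a small-subunit factor, had 105, 106, 120.3 and 139 CPM, and Rrp1 had 199.5, 213, 228 and 251 CPM. Nol7 had 223, 237, 230.4 and 265 CPM. For the class with Bcl11b and Cd3g over the Il2ra class, 36 of 42 genes had a log2 ratio below 0. The median was -0.19, with a range from -0.57 for Gnl3 to 0.39 for Utp3. These values were not computed over all genes, so this count has no background.

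**Figure D5:**
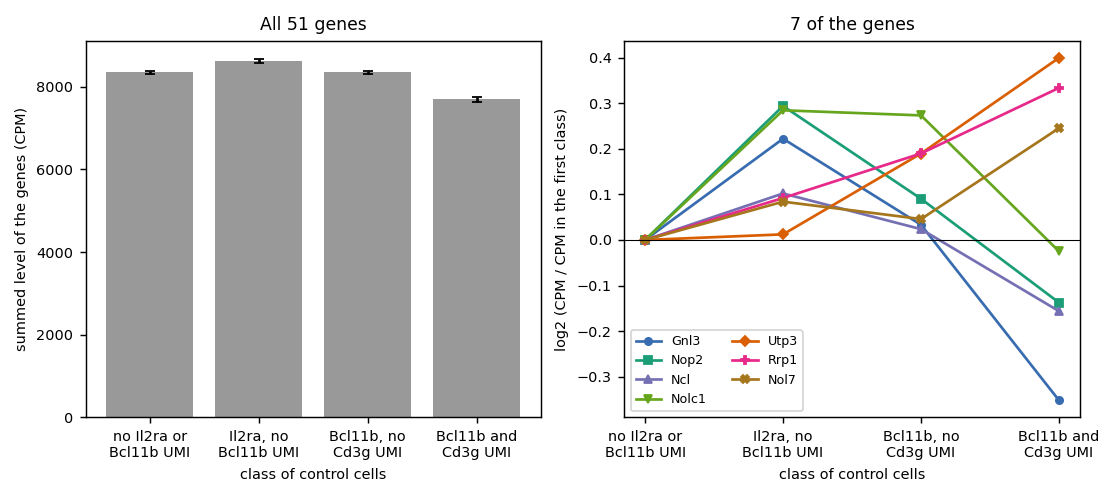
Left, summed level of the 51 genes (CPM, bars from 0, with 95% Poisson intervals) in 4 classes of control cells by UMIs of Il2ra, Bcl11b and Cd3g. Right, log2 of the CPM over that in the first class for 7 genes: Utp3, Rrp1 and Nol7 end above 0, and Gnl3, Nop2 and Ncl end below it.

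Some counts could hold reads of other genes. Utp14b overlaps Acsl3 on the same strand, and 13 of the 51 genes overlap a protein-coding gene on the opposite strand, among them Nhp2, Gnl3, Dkc1, Nop56 and Rrp1b. Whether reads were counted by strand, and how reads that fit several places were treated, is not stated in the labels.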

How the data were processed

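Single-cell RNA was measured in 5 sorted thymus populations pooled in 1 Chromium 3′ v3 library with a hashtag library. Reads had been processed with Cell Ranger 3.0 and mm10, per the submitters' processing notes. The deposited matrix holds UMI counts per gene and barcode, not normalized by the authors. The authors' assignment of barcodes to populations was used as deposited, and its rule is not stated; doublets within a hashtag were not called.

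UMIs were summed over the cells of a population and divided by its total, per 1000000 UMIs (CPM), with 95% Poisson intervals for levels and binomial intervals for ratios. A gene was measured in a comparison at 20 CPM in the higher population. With 1 sort per population, no test was run. The genes and lists were chosen with earlier results of these data known. Named genes were the box C/D, box H/ACA and RNA polymerase I genes, the 3 with most UMIs in each other role, the 4 highest and 4 lowest ratios of each comparison, those under 5 CPM, and the 3 highest and 3 lowest of other lists. Any others were named after their values were seen. The scripts were tested on simulated Poisson counts with changes of 1.5-fold and 2-fold, without variation between sorts or cells. Smaller changes, the size of most differences given here, were not simulated. Coordinates are from GENCODE M21, in which all 51 genes were found, 1 of them under another name. Alternatives were TMM (edgeR 4.0.16) and DESeq2 1.42.0 size factors, other totals, cell filters and thresholds, and 3 cell selections added after seeing the data. Python 3.11.15, numpy 2.4.6, pandas 2.3.3, scipy 1.17.1 and R 4.3.3 were used.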

Additional observations from a re-analysis of the deposited data

How the results depend on the processing

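Of 245 values recomputed under 14 alternatives chosen at the start and 3 added after seeing the data, 183 stayed within the tolerance, 57 moved and 5 changed sign. The 3 added were the window of UMIs, with and without the granulocyte class, and cells with no G2 or M phase UMI among 3000 outside that class. The last cells were not selected on S phase genes. In the Flt3+ Ly6d- HSA- sort, 332 of 503 such cells had 3 or more S phase UMIs. The tolerance was the 95% order-statistic interval over the genes for a median and a factor of 1.5 for a count. The median log2 ratio of Flt3- Ly6d- HSA- over Flt3+ Ly6d- HSA- cells ran from -0.29 to -0.017, the end nearest 0 being that of cells of 10000 to 15000 UMIs, and that of Flt3- Ly6d+ over Flt3+ HSA+ cells from -0.31 to -0.12. Another fold cannot move a median. The hashtag filter left every median, count and number of genes measured exactly as reported, so its unmoved values say nothing of how stable the results are. Counts of lower genes follow, with the share of all genes lower in parentheses. The first comparison, reported with 8 of 42, had 14 of 42 with TMM factors (13%), 14 of 42 with DESeq2 size factors (12.8%), 14 of 39 after thinning (13.9%), 15 of 39 with equal weight per cell (12.7%), 16 of 42 without the 5% of cells with most UMIs (13.2%), 17 of 42 without the granulocyte class (15.2%) and 4 of 42 with totals that leave out mitochondrial and ribosomal protein genes (8.81%). It had 1 of 40 in cells with no G2 or M phase UMI among 3000 (6.97%) at a median of -0.18, 9 of 39 in such cells outside the granulocyte class (8.6%) at a median of -0.23, 0 of 42 at a fold of 1.5 (4%) and 0 of 42 at a fold of 2 (1.9%). Flt3- Ly6d+ over Flt3+ HSA+, reported with 13 of 42, had 20 of 42 with TMM factors (22.1%), 1 of 42 at a fold of 1.5 (6.73%) and 0 of 42 at a fold of 2 (3.15%). It had 10 of 42 with totals that leave out mitochondrial and ribosomal protein genes (13.3%) and 10 of 40 in cells with no G2 or M phase UMI among 3000 (11%). The median of the first was -0.27 without the 5% of cells with most UMIs and -0.29 without the granulocyte class.

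The median of Flt3- Ly6d+ over Flt3- Ly6d- HSA- cells, reported as -0.046, changed sign to 0.019 with equal weight per cell, 0.014 after thinning, 0.0093 without the 5% of cells with most UMIs, 0.063 without the granulocyte class and 0.037 in cells with no G2 or M phase UMI outside that class; in cells with no G2 or M phase UMI it was -0.0027. Here 1 of 38 genes was higher without the granulocyte class (4.25% of all genes), and 2 of 39 were lower after thinning (7.04%). In cells with no G2 or M phase UMI 1 of 40 was lower (3.72%), and in such cells outside the class 1 of 39 (3.77%). The median of Flt3+ HSA+ over Flt3+ Ly6d- HSA- cells, reported as -0.006, was 0.039 with equal weight per cell and 0.059 after thinning. It was 0.022 without the 5% of cells with most UMIs and 0.016 without the granulocyte class. In cells with no G2 or M phase UMI it was 0.056, and in such cells outside the class 0.058. There 1 of 40 genes was higher after thinning (8.27% of all genes). Likewise 1 of 40 was higher in cells with no G2 or M phase UMI (3.59%) and 1 of 40 in such cells outside the class (3.74%). The control median, reported as 0.084, was 0.10 without the granulocyte class, and 1 of 42 genes was higher after thinning (8.92% of all genes).

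In cells of 10000 to 15000 UMIs the medians were -0.017 for Flt3- Ly6d- HSA- over Flt3+ Ly6d- HSA-, 0.016 for Flt3+ HSA+ over Flt3+ Ly6d- HSA-, -0.12 for Flt3- Ly6d+ over Flt3+ HSA+ and 0.0052 for the control. The share of all genes follows each count in parentheses. The first had 0 of 40 genes lower (5.76%), and the next 1 of 40 higher (6.67%) and 1 lower (4.06%). Flt3- Ly6d+ over Flt3+ HSA+ had 2 of 41 higher (11.9%) and 5 lower (11.4%), and Flt3- Ly6d+ over Flt3- Ly6d- HSA- had 1 of 40 lower (4.46%). Outside the granulocyte class the same window gave medians of -0.037, 0.019, -0.12 and 0.0056 and the same counts. For Flt3- Ly6d+ over Flt3- Ly6d- HSA- 1 higher gene of 40 was added (7.01% of all genes). With no minimum CPM and 50 genes measured, 1 gene was higher within HSA- sorts (24.4% of all genes) and 1 within Flt3- sorts (16.9%). For Flt3- Ly6d+ over Flt3+ HSA+ 2 were higher (29.3%). For Flt3+ HSA+ over Flt3+ Ly6d- HSA- 1 was lower (13%), and in the control 1 (19.1%). None of these genes reached 20 CPM there. A larger fold leaves fewer genes by its construction; for the other changes the cause was not tested.

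No paired analysis was possible because each population is 1 sort. Without replicate sorts, no difference of any size was set against the variation between sorts of the same gate.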
